A study of Mus musculus with 2 samples.

Results

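The genes described here encode the building blocks of the actin and microtubule cytoskeleton: actins, tropomyosins, transgelins, calponins, caldesmon, actinins, filamins, myosin heavy and light chains, and alpha and beta tubulins. Members are the genes whose symbol belongs to these families, read from probe sets that name 1 gene. The choice gave 57 genes of the 18193 named on the array, read by 113 of its 45101 probe sets, which include 3 control probe sets of Actb. Total RNA of kidney was measured on 1 Affymetrix array per group, in a mouse model of nephronophthisis type 2, a cystic kidney disease. The cystic kidney came from mice homozygous for the inv mutation (inv/inv) that carried inv-deltaC::GFP, a transgene for inversin that lacks its C-terminus and is fused to green fluorescent protein. Mice with normal alleles (+/+) gave the control kidney and carried the same transgene, so both groups share it. The series gives an age of 4 weeks, and the label of the cystic array 28 days and female sex. The promoter of the transgene, and how many animals gave the RNA of an array, are not given in the sources used here.

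Actin filaments carry tension in every cell. In smooth muscle and in myofibroblasts, the contractile cells of scar tissue, they are built from dedicated isoforms such as the actins of Acta2 and Actg2 and are decorated with transgelin, calponin and caldesmon. Non-muscle cells, the tubule epithelium among them, use the actins of Actb and Actg1, the myosins of Myh9, Myh10 and Myh14 and the broadly used tropomyosins. Many of the contractile genes are known targets of serum response factor (SRF), which binds a DNA element called the CArG box. Tubulins pair as alpha and beta chains into microtubules, which also form the core of the primary cilium, where inversin is found.

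With 1 array per group there is no replicate and no test, so each difference compares 2 arrays, and their number limits the precision. Values are the deposited MAS5 signal, a linear intensity, and log2 ratios are cystic minus control. A probe set was measured where it reached the median signal of its array, the floor, on at least 1 array: 61.9 for cystic and 55.4 for control. Lower signals were raised to the floor, and a ratio against such a signal is a bound. A gene took the value of its brightest probe set, and at least 2-fold was counted as higher or lower. The SD of log2 ratios between probe sets of a gene, a technical repeat, was 0.29 over 4694 genes.

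The sex label of the cystic array was not borne out by its signals. Xist, transcribed from the inactive X chromosome of females, had a signal of 57.4 on the cystic array, under the floor, against 387 on the control array. The Y-linked genes Eif2s3y, Kdm5d and Uty were above the floor on both arrays, with 142, 194 and 198 on the cystic array and 132, 152 and 206 on the control array. The groups may thus differ in the sex of the animals as well as in genotype, and the part of sex in the differences was not tested. The 2% trimmed mean signals were close, 181 for cystic and 178 for control. The control probe sets of Actb had a ratio of 3' to 5' signal of 1.17 on the cystic array and 1.23 on the control array.

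The 250 bases before the annotated start of 4 members are shown for the SRF element that many contractile genes share. Those of Myl9, Cnn2 and Actg1 hold an exact match to this CArG box, in capitals, and those of Acta2 hold no exact match. Sequences run 5' to 3' on the strand of the gene, from RefSeq on GRCm38.p6. They lie at chr2:156775214-156775463 (plus strand), chr10:79988350-79988599 (plus), chr11:120348496-120348745 (minus) and chr19:34255374-34255623 (minus).
Myl9: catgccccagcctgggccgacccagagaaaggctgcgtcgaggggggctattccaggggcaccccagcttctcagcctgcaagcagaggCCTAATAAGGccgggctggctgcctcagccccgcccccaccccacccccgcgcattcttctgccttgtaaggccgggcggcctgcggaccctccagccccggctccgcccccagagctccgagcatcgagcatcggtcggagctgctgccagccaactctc
Cnn2: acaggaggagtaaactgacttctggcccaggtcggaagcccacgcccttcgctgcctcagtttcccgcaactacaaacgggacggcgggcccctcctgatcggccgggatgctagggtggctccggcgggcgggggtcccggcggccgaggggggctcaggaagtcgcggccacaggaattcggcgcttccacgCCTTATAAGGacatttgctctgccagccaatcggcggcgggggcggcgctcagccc
Actg1: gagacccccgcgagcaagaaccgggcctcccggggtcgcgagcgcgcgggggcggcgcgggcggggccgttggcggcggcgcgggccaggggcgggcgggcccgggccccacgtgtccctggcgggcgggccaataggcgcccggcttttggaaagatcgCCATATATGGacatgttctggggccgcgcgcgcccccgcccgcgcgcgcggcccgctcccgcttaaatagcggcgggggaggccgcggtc
Acta2: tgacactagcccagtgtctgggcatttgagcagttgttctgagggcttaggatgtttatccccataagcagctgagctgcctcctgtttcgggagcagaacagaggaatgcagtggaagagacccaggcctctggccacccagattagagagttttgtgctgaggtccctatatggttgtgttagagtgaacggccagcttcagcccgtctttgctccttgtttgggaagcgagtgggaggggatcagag

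Of the 57 genes, 33 were measured, 31 of them on both arrays, and 24 were under the floor on both. The measured genes were mostly higher in the cystic kidney: 17 of 33 (51.5%) were at least 2-fold higher and 0 were at least 2-fold lower. Over all 12015 measured genes, 848 (7.06%) were at least 2-fold higher and 454 (3.78%) at least 2-fold lower. The median of the 33 genes was that of Myh10, at the limit with 2.00-fold, against a median of 1.06-fold over all measured genes. Actg2 entered the count by a bound. Fewer cells of a type and less RNA per cell cannot be told apart in whole kidney RNA, nor can more of either.

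**Figure D1:**
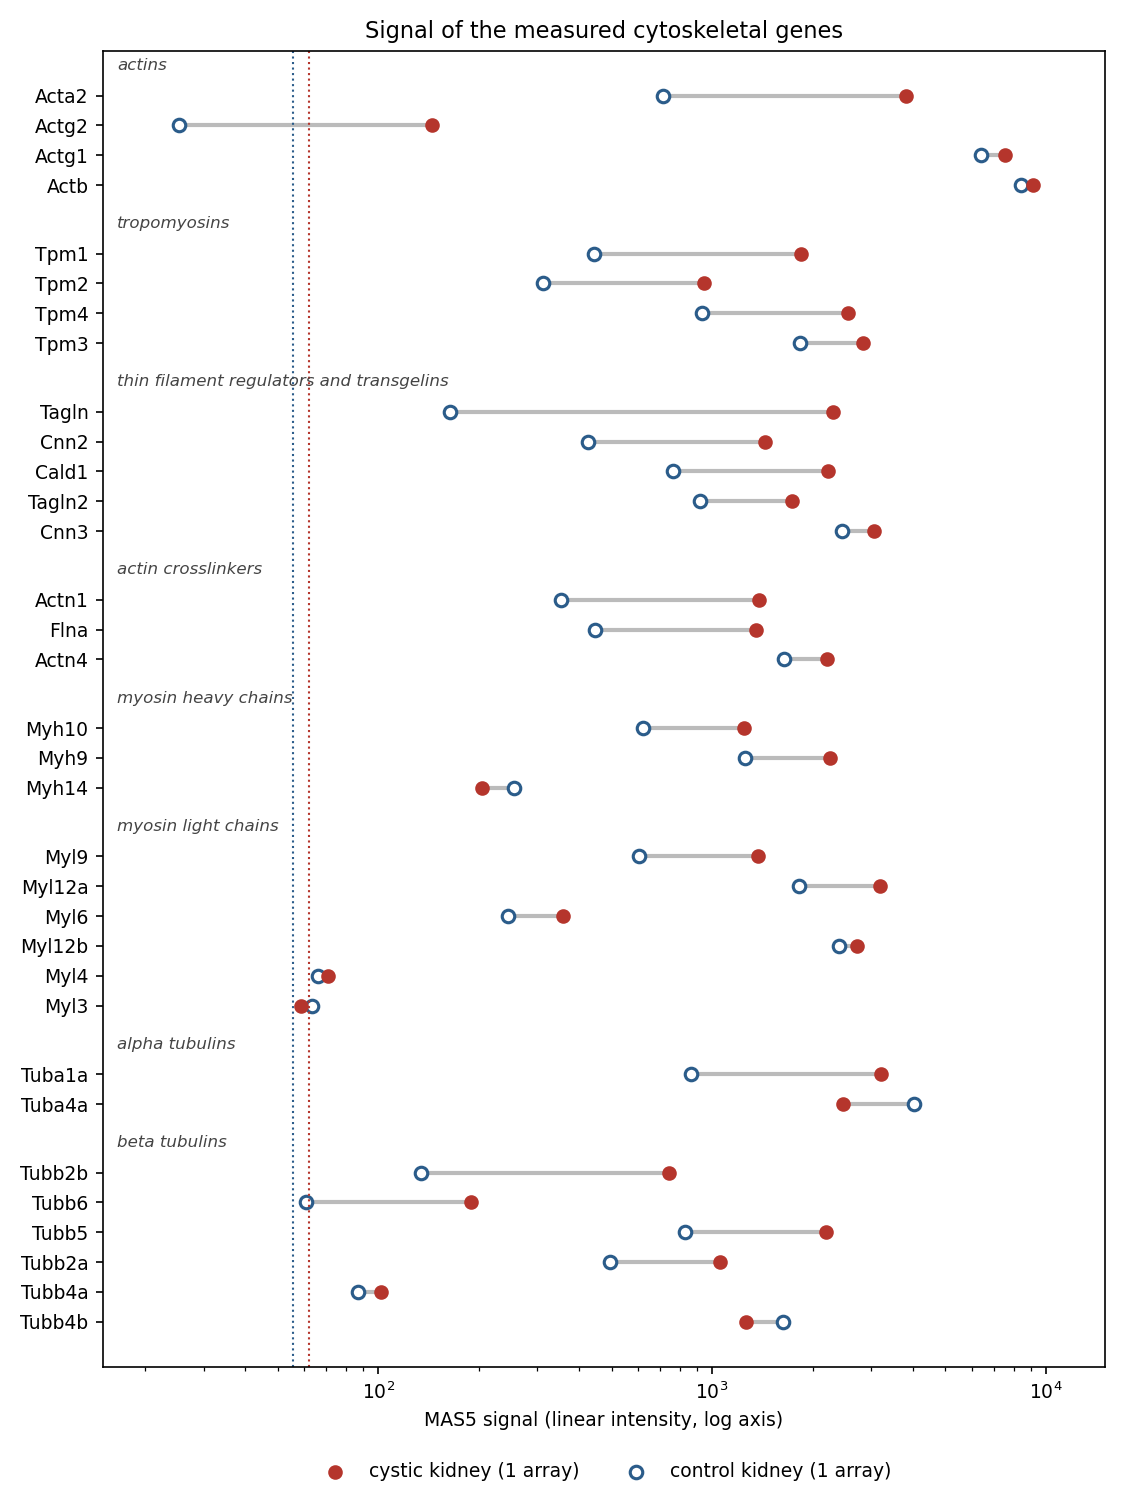
Signal (linear MAS5 intensity, log axis) of the 33 measured genes by role, with cystic kidney as filled and control kidney as open circles, 1 array each, and dotted lines at the floors of 61.9 (cystic) and 55.4 (control). The filled circle lies to the right for 29 genes, farthest for Tagln, and to the left for Tuba4a, Tubb4b, Myh14 and Myl3.

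The smooth muscle actins were higher in the cystic kidney, while the cytoplasmic actins differed little. Acta2, the alpha actin of smooth muscle and myofibroblasts, had a signal of 3804.5 in the cystic kidney and 712.8 in the control kidney, 5.34-fold higher. This value comes from 1 probe set, marked as shared between transcripts or genes, and the other 2 Acta2 probe sets did not reach the floor on either array, with 36.2 and 11.5 in the cystic and 31.8 and 5.6 in the control kidney. Actg2, the gamma actin of smooth muscle first known from gut and bladder, had 144.8 in the cystic kidney and 25.3 in the control kidney, under the floor. It was thus at least 2.61-fold higher, and with the floor at the 60th percentile its bound, a log2 ratio of 0.72, was no longer past 2-fold. Its single probe set is marked as shared between transcripts, so neither smooth muscle actin had a value once marked probe sets were left out. Actg1, the cytoplasmic gamma actin, had 7557.9 in the cystic and 6387.4 in the control kidney (1.18-fold). Its beta counterpart Actb had 9145.8 in the cystic and 8392.2 in the control kidney (1.09-fold), and its second probe set had 1187 in the cystic and 1402.5 in the control kidney, a log2 ratio of -0.24. The sign for Actb also turned with median centring, to -0.04. Without marked probe sets, Actg1 had no value either, and Actb had the -0.24 of its second probe set. The control probe sets for the 3' end, middle and 5' end of Actb had log2 ratios of 0.27, 0.35 and 0.36. The actins of skeletal and heart muscle, Acta1 and Actc1, were under the floor on both arrays.

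Tropomyosins lie along the actin filament and set which other proteins bind it. Of the 4 genes, 3 were at least 2-fold higher. Tpm1, which yields smooth muscle, striated and general forms by splicing, had 1844.3 in the cystic and 444.2 in the control kidney (4.15-fold). Its other measured probe sets had 6.51-fold and 1.42-fold, so the probe sets of this gene did not give 1 value. Tpm2, the beta tropomyosin, placed in the smooth muscle list below, had 948.5 in the cystic and 312.3 in the control kidney (3.04-fold). Its other measured probe sets had 4.55-fold and 1.10-fold. The 1.10-fold probe set is the one left when probe sets marked as shared between transcripts or genes are left out, which ends the count of Tpm2 as higher. Its signals were close to the floors, with 75.9 in the cystic and 69.3 in the control kidney. Which splice forms these probe sets read was not examined here. Tpm4, a non-muscle tropomyosin, had 2547.4 in the cystic and 935.1 in the control kidney (2.72-fold). For Tpm3, also used in non-muscle cells, the signals were 2831.8 in the cystic and 1832.4 in the control kidney (1.55-fold), with 2.38-fold and 1.79-fold at its other measured probe sets.

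Transgelins, calponins and caldesmon bind actin filaments and tune contraction. Tagln, the transgelin of smooth muscle, had the largest log2 ratio of the 33 genes, 3.81, with a signal of 2296.4 in the cystic kidney and 164.1 in the control kidney (14.0-fold). It ranked 9 of all 12015 measured genes. Cald1, caldesmon, with a smooth muscle and a general form, had 2229.9 in the cystic and 762.9 in the control kidney (2.92-fold), and its 4 measured probe sets lay between 1.07 and 1.56 on the log2 scale. The calponins differed among themselves. Cnn2, a calponin of many cell types including macrophages, had 1438.0 in the cystic and 425.2 in the control kidney (3.38-fold), and its upstream sequence is one of those with a CArG box. Cnn3, the acidic calponin, had 3050.2 in the cystic and 2441.7 in the control kidney (1.25-fold), with log2 ratios between 0.12 and 0.95 at its 6 probe sets. Cnn1, the calponin most specific to smooth muscle, was under the floor with 37.4 in the cystic and 9.8 in the control kidney. Tagln2, a transgelin outside smooth muscle, had 1738.0 in the cystic and 920.3 in the control kidney, a log2 ratio of 0.92. The second Tagln2 probe set pointed the other way, with 130.3 in the cystic and 255.5 in the control kidney (-0.97), so its direction is not settled.

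Actinins and filamins crosslink actin filaments and tie them to adhesions. Actn1, the non-muscle actinin of stress fibres, had 1383.1 in the cystic and 354 in the control kidney (3.91-fold), with 5.12-fold and 2.21-fold at its other probe sets. Flna, filamin A, had 1356.7 in the cystic and 445.9 in the control kidney (3.04-fold). Actn4, an actinin abundant in podocytes, had 2207.7 in the cystic and 1645.9 in the control kidney (1.34-fold). The 2 non-muscle actinins thus lay 1.97 and 0.42 above 0 on the log2 scale. The striated muscle members Actn2, Actn3 and Flnc were under the floor on both arrays.

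Myosin heavy chains are the motors that pull on actin. Among the non-muscle heavy chains, Myh10 had 1243.6 in the cystic and 620.7 in the control kidney (2.00-fold), and with median centring its log2 ratio was 0.84, no longer past the limit. Myh9 had 2252.8 in the cystic and 1252.9 in the control kidney (1.80-fold) at its brightest probe set, while 3 of its 5 measured probe sets were past 2-fold and the log2 ratios of the 5 lay between 0.85 and 1.14. Myh14 went the other way, with 204.4 in the cystic and 254.6 in the control kidney, a log2 ratio of -0.32. The smooth muscle heavy chain Myh11 was under the floor on both arrays, with 58.6 in the cystic and 51.6 in the control kidney. The 7 heavy chains of skeletal and heart muscle were under the floor as well: Myh1, Myh2, Myh3, Myh4, Myh6, Myh7 and Myh8.

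Light chains bind the neck of myosin, and phosphorylation of the regulatory ones switches contraction on in smooth muscle and non-muscle cells. Myl9, the regulatory chain enriched in smooth muscle, had 1371.0 in the cystic and 602.6 in the control kidney (2.28-fold). Its near relatives in non-muscle cells were Myl12a, with 3180.6 in the cystic and 1815.3 in the control kidney (1.75-fold), and Myl12b, with 2724.9 in the cystic and 2398.0 in the control kidney (1.14-fold). The second Myl12a probe set had a log2 ratio of 0.32. Myl6, the essential light chain outside striated muscle, had 357.8 in the cystic and 245.4 in the control kidney (1.46-fold). Other probe sets name Myl6 beside predicted genes and are no members. They were brighter, with 3351.0 and 4528.9 in the cystic and 2784.0 and 3929.4 in the control kidney (1.20-fold and 1.15-fold). The heart chains Myl3 and Myl4 lay beside the floor, with 58.7 and 70.6 in the cystic and 63.3 and 66.0 in the control kidney, and no direction is read from them. Myl6b, Myl10 and the striated chains Myl1, Myl2 and Myl7 were under the floor.

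Tubulins went both ways. Of 8 measured tubulins 5 were at least 2-fold higher, and their median log2 ratio was 1.25. Tubb2b, a beta tubulin best known from the developing brain, had 744.6 in the cystic and 134.5 in the control kidney (5.54-fold), second to Tagln among the 33 genes. A probe set that names Tubb2b together with a pseudogene had 409.5 in the cystic and 57.7 in the control kidney (7.10-fold). Tuba1a, an alpha tubulin of developing and regenerating tissue, had 3207.8 in the cystic and 865 in the control kidney (3.71-fold). Tubb6 had 189.5 in the cystic and 60.9 in the control kidney (3.11-fold). This control signal lay close to the floor, and with the floor at the 60th percentile the log2 ratio of Tubb6 fell from 1.64 to 1.11. Tubb5 had 2195.2 in the cystic and 831.8 in the control kidney (2.64-fold), but 1.53-fold at its second probe set, and Tubb2a had 1056.1 in the cystic and 493.3 in the control kidney (2.14-fold). These 5 were higher in the cystic kidney at every measured probe set that names them alone. With median centring the log2 ratio of Tubb2a was 0.94. In contrast, Tuba4a, an alpha tubulin of differentiated cells, had 2463.9 in the cystic and 4019.5 in the control kidney, a log2 ratio of -0.71. Its other measured probe sets had -0.99 and a bound of -0.79. Tubb4b, a beta tubulin of ciliated and many other cells, had 1266.4 in the cystic and 1627.8 in the control kidney (-0.36), and all 4 of its measured probe sets lay below 0, with 1 of them at -1.18. Tubb4a had 101.7 in the cystic and 87.2 in the control kidney (1.17-fold). Tubulin transcripts are close copies of each other, so separate values for Tuba1a, Tubb2a and Tubb2b are uncertain. Without probe sets marked as shared, Tuba1a and Tubb2a had no value and Tubb5 had a log2 ratio of 0.62, no longer past 2-fold. Probe sets shared with predicted genes had log2 ratios of 0.47 for Tuba1b and of -0.78 and 0.31 for Tuba1c. Those shared by Tuba3a and Tuba3b had 0.15 and 0.14. Tuba3b, Tuba8, Tubb1, Tubb3 and the nerve transgelin Tagln3 were under the floor.

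**Figure D2:**
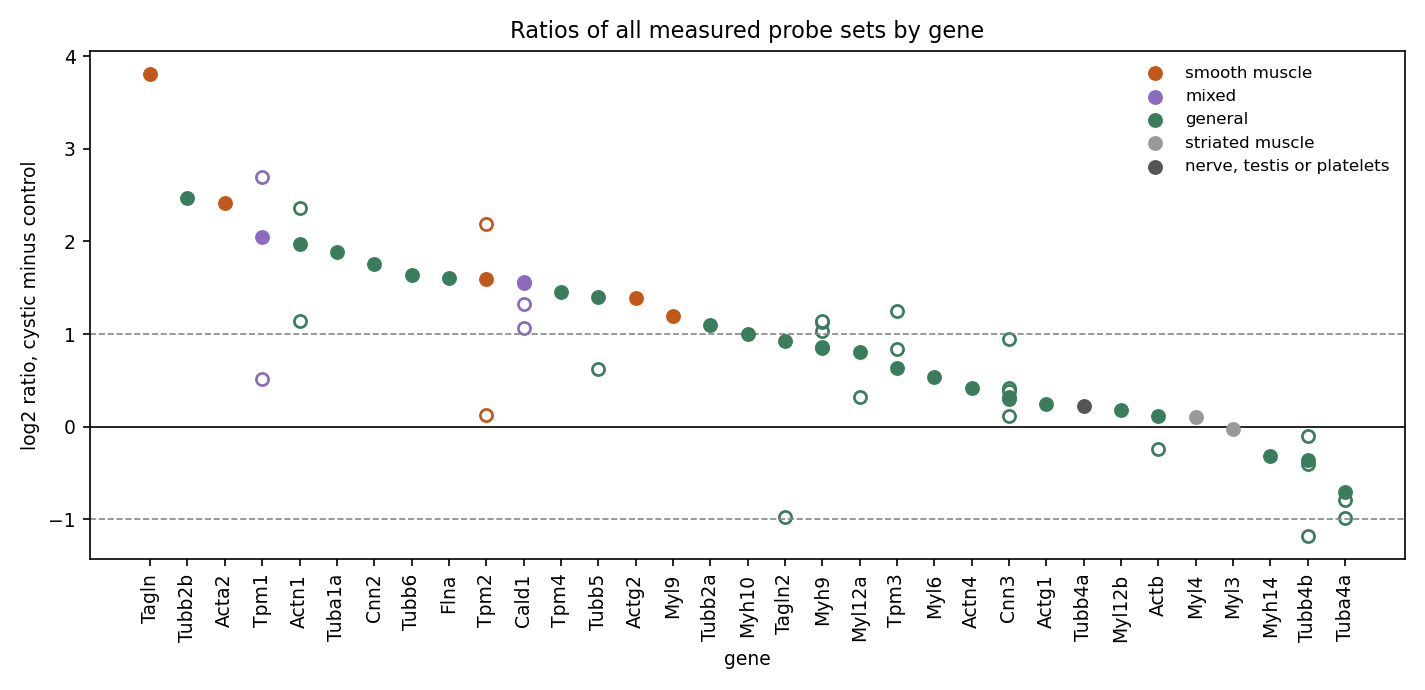
Log2 ratio, cystic minus control, of every measured probe set of the 33 genes (horizontal axis, sorted by the brightest probe set, filled; other probe sets open), coloured by class, with dashed lines at 2-fold. Probe sets spread most for Tpm1, Tpm2 and Tagln2, and those of Myh9 and Tuba4a lie close together.

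Smooth muscle isoforms were set against general ones. The smooth muscle list held Acta2, Actg2, Myh11, Cnn1, Tagln, Myl9 and Tpm2, of which 5 of 7 were measured, and all 5 were at least 2-fold higher. Their median log2 ratio was 1.60, with a range of 1.19 to 3.81. This median is the value of Tpm2, whose measured probe sets lay between 0.13 and 2.19. Actg2 entered the list by a bound. Myh11, not measured, lay just under both floors, with 58.6 in the cystic and 51.6 in the control kidney. With the floor at the 40th percentile 6 of the 7 were measured, and the smooth muscle median was 1.81. Of 24 general isoforms 23 were measured, 10 were at least 2-fold higher and 0 lower, and the median was 0.85, with a range of -0.71 to 2.47. The medians differed by 0.76, smooth muscle minus general. The lists overlapped: 8 of 23 general isoforms lay above the lowest smooth muscle member, Myl9, and 6 lay above the smooth muscle median. Without probe sets marked as shared, 3 smooth muscle members were measured, 2 of them, Tagln and Myl9, past 2-fold, and the medians differed by 0.38. The other was Tpm2, read there by its probe set close to the floors. Within the general list, the 16 actin-based genes had a median of 0.72 and the 7 tubulins 1.40. The 2 genes listed as having both smooth muscle and general forms, Tpm1 and Cald1, had 2.05 and 1.55.

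**Figure D3:**
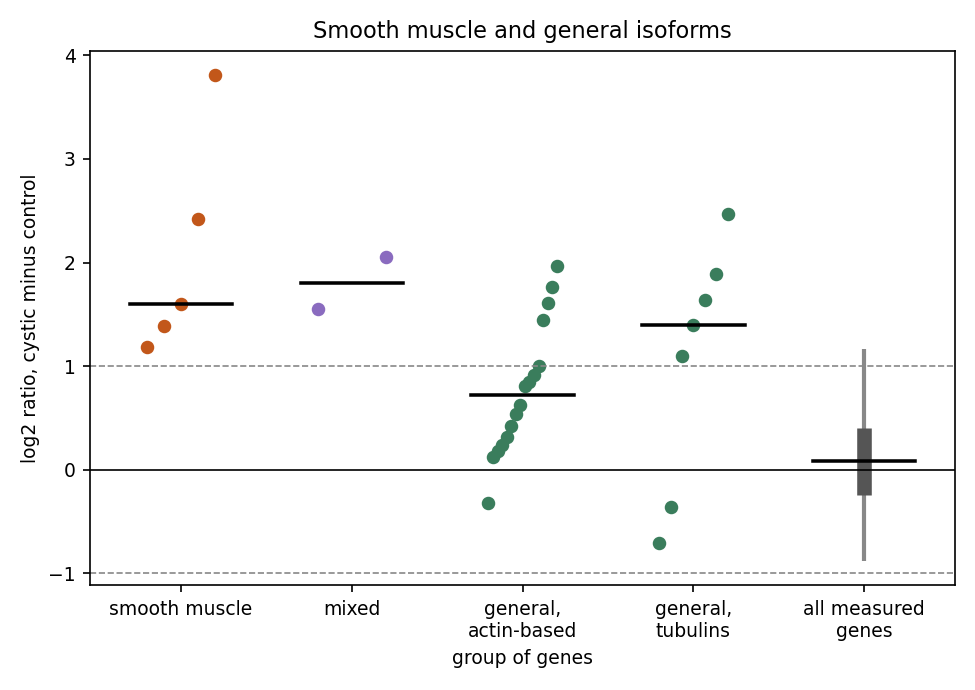
Log2 ratio, cystic minus control, of each measured gene (points) by class, with the median as a black line; at the right, all 12015 measured genes with the 25th to 75th (thick, -0.24 to 0.40) and 5th to 95th percentiles (thin, -0.88 to 1.17). All 5 smooth muscle points lie above the dashed 2-fold line, and general isoforms lie on both sides of it.

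Within the smooth muscle list, Tagln and Acta2 were 14.0-fold and 5.34-fold higher, while Myh11 and Cnn1, both markers of contractile smooth muscle, were under the floor on both arrays. No direction is read from genes under the floor on both arrays. Further smooth muscle and pericyte genes, none of them members, were read in the same way. Of 14 on the array, 8 were measured, 4 were at least 2-fold higher and 0 lower, and the list's median was 0.83. Over all measured genes the shares were 7.06% higher and 3.78% lower. Myocd, the SRF cofactor of smooth muscle, Lmod1, Synpo2, Sncg, Mustn1 and Pln were under the floor on both arrays. The 4 higher genes were the adhesion molecule Mcam, at least 5.33-fold, the receptor of pericytes and fibroblasts Pdgfrb (log2 ratio 1.55), Rgs5 (1.26) and Notch3 (1.14). Des, the muscle intermediate filament, named after its values were seen, had 65.7 in the cystic kidney, just above the floor, and 18.2 in the control kidney, under it. Kcnmb1, also named afterwards, had 62.8 in the cystic and 8.7 in the control kidney. The ratios of Mcam, Des and Kcnmb1 are bounds, so the list's median is a lower bound.

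Markers of other cells went both ways, and their part in the differences was not tested. Of all measured genes, 7.06% were at least 2-fold higher and 3.78% at least 2-fold lower. All 9 fibroblast markers were at least 2-fold higher, Thy1 by a bound, with a median log2 ratio of 2.04. Their summed signal was 23765 in the cystic and 5851 in the control kidney. Of 8 macrophage markers 7 were higher, Cd68 by a bound, with a median of 2.57 and sums of 8939 in the cystic and 1916 in the control kidney. Of 6 proximal tubule markers 5 were lower, with a median of -1.19 and sums of 15228 in the cystic and 34228 in the control kidney. Of 7 distal nephron and collecting duct markers 2 were lower (median -0.32), of 4 podocyte markers 1 was lower (-0.30), and 0 of 5 endothelial markers were past 2-fold (-0.07). Of 9 skeletal and heart muscle markers 8 were under the floor on both arrays, and Ckm alone was above it on the cystic array, with 115.7 against 50.7 on the control array (a bound of 1.06 in log2). The 8 troponin genes were under the floor on both arrays.

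Regulators and partners of the same machinery, none of them members, were counted at the same limit. Of all measured genes, 7.06% were higher and 3.78% lower at this limit. Among SRF and its cofactors 1 of 5 measured genes was higher, Fhl2 (1.24), and Srf itself had 0.70, Mrtfb 0.90 and Mrtfa 0.50. In the regulation of myosin, 1 of 12 was higher, the GTPase gene Rhob (1.09), and Mylk, the kinase of the regulatory light chains, had 0.94. The median of this list was 0.28, and Cit (-0.41) and Dapk3 (-0.36) lay below 0. Contractile and adhesion proteins had 3 of 12 higher, Pdlim7 (2.55), Csrp1 (1.95) and vinculin, Vcl (1.23), while Csrp2 had -0.42. In actin assembly and severing 5 of 23 were higher, led by Coro1a, a coronin of white blood cells (2.75), Capg (2.05) and the thymosin gene Tmsb10 (1.77), while Cfl2 had -0.18. The list of actin bundlers and brush border proteins went both ways, with 2 of 13 higher, among them the white blood cell plastin Lcp1 (1.94), and 3 lower, the microvillus proteins Eps8 (-1.17), Espn (a bound of -1.16) and Vil1, villin (-1.03). Its median was -0.22. For tubulin folding and turnover the median was 0.18, 0 of 19 were higher, and the axonal microtubule protein Mapt was lower (-1.31). The other tubulins and their complex partners had a median of 0.28, with 0 of 5 past 2-fold. Spectrins and adducins had a median of 0.01, with 0 of 4 past 2-fold. Of 7 other myosins Myo9b was higher (1.23) and Myo5a lower (-1.64).

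The sequences before the start were searched for what these genes share beyond their names. RefSeq windows were found for 50 of the 57 genes, 58 windows in all, and the 250 bases before each start were searched. A CArG box was found in 9 of 58 windows (15.5%), against 482 of 32851 windows of all genes (1.47%). The 9 genes were Acta1, Actc1, Actg1, Cnn2, Myh4, Myl3, Myl6, Myl7 and Myl9. The element reads alike on both strands, so a search of 1 strand finds both. Of these 9 genes 5 were measured and 2, Cnn2 and Myl9, were at least 2-fold higher, against 13 of the 28 measured members with a window, while Actg1 had 1.18-fold. Counted from the start, the first base of the element lay at -161 in Myl9, -56 in Cnn2 and -90 in Actg1. The Acta2 window shown above had no exact match, but its runs ccctatatgg and ccttgtttgg come close to the element. Tagln, Actg2 and Actb had no window. The MCAT core, CATTCC on either strand, bound by TEAD factors, was found in 17 of 58 windows (29.3%) against 4153 of 32851 (12.6%). Of the 17 genes 9 were measured and 6 were at least 2-fold higher: Acta2, Cald1, Flna, Myh10, Tpm1 and Tubb5. With counts this small, against the same 13 of 28, nothing is read from either share. No match of one element overlapped a match of the other. A match is a run of letters and not a binding site. The search allowed no mismatch, so near matches inside a window were not counted. A match further upstream or in an intron would not be seen in these windows.

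**Figure D4:**
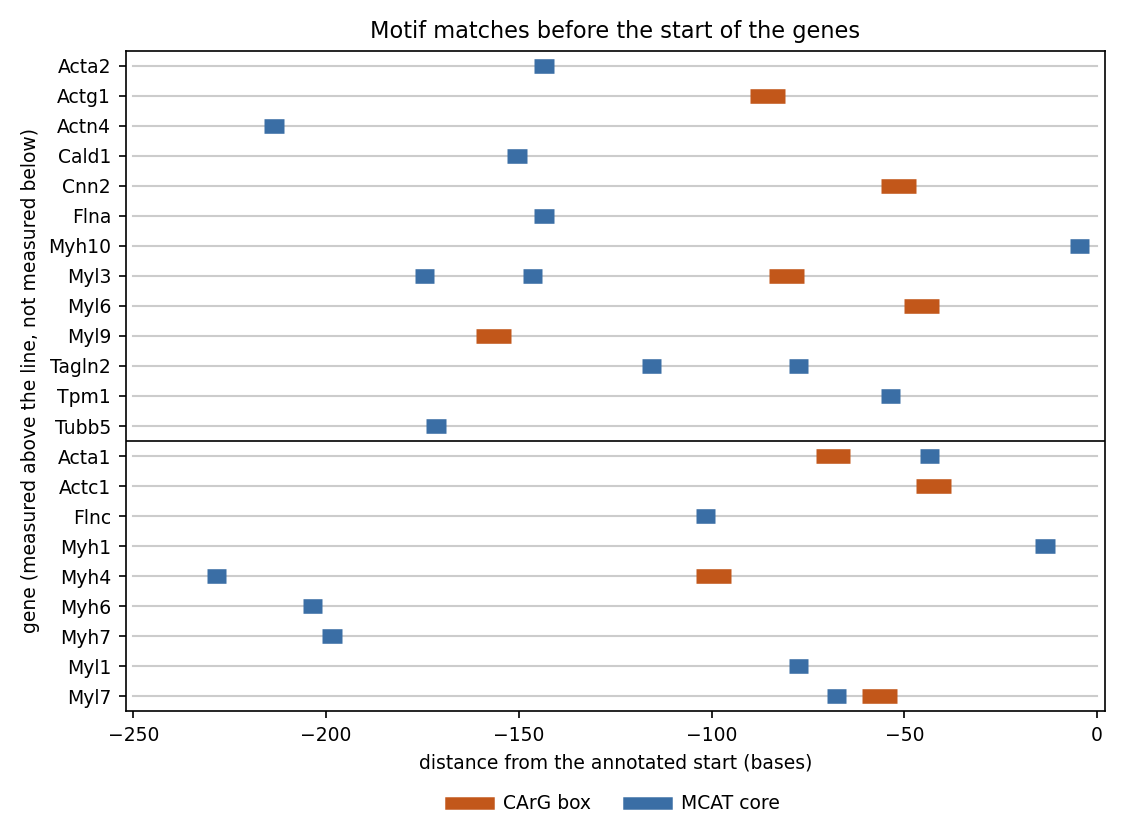
Matches of the CArG box and the MCAT core in the 250 bases before the annotated start (horizontal axis, distance in bases) of the genes with at least 1 match, measured genes above the line and genes under the floor below it. The CArG box of Myl9 lies farthest from the start, at -161.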

How the data were processed

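Kidney RNA was measured on 2 arrays, 1 cystic and 1 control, grouped by the sample titles. The deposited values are a linear signal intensity per probe set made with MAS5, per the labels; the version, the scaling target and any detection calls are not given in the sources used here. From them, 64 control probe sets were left out, 45037 were kept, and the deposited scaling was used. The platform annotation gave gene names, which RefSeq identifiers brought up to date (GRCm38.p6); 34945 named 1 gene. The floor was the 50th percentile of each array. The brightest probe set had the highest mean log2 floored signal. Python 3.11.15, pandas 2.3.3 and numpy 2.4.6 were used, and the steps were tested on simulated arrays. Alternatives were median centring, quantile and loess scaling, floors at the 40th and 60th percentile and none, other probe sets and a 1.5-fold limit. All measured members are named, and of other lists at most 4 genes with the largest ratios on the median's side of 0 and 2 on the opposite side; the members and lists were chosen with earlier results of these data known. Sequences came from RefSeq windows of 250 bases before to 50 after a start.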

Additional observations from a re-analysis of the deposited data

How the results depend on the processing

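No paired analysis was possible because each group has 1 array. Between 15 and 18 of the 33 measured genes were at least 2-fold higher under median centring, quantile or loess scaling, and 0 were lower. With median centring the log2 ratios of all measured genes had a median of -0.07, against 0.09 as deposited, with 608 genes higher (5.06%) and 672 lower (5.59%). Without probe sets marked as shared, 25 members were measured and 11 were higher (6.67% of all genes were), the smooth muscle median was 1.19 and its difference from the general median 0.38. With the second brightest probe set, 1 member was lower, Tubb4b, the smooth muscle median was 2.19 and the difference 1.23. With no floor, all 57 members entered, 21 were higher and 7 lower, against 11.5% and 9.16% of all genes, and the smooth muscle median and the difference were 1.93 and 1.10. With only the 31 members above the floor on both arrays, an alternative chosen after seeing the data, 16 were higher, as were 6.15% of all genes above both floors, and the smooth muscle median and the difference were 2.01 and 1.16. At 1.5-fold, 21 were higher and 1 lower, Tuba4a, against 16.4% and 10.8% of all genes. The general median lay between 0.69 and 0.99 under the alternatives run. Values of single members moved by more than the SD between probe sets 19 times, 10 of them with the second brightest probe set, which can move only the 13 members with more than 1 measured probe set. The floor and the number of arrays limit what could be seen of genes with low signal.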
